A study of Mus musculus with 12 samples.

Results

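The full conversion cocktail, named RISDD in the labels, was compared with the motor neuron factors alone, named NIL, in mouse embryonic fibroblasts. All libraries of both groups were taken by their column names, which gave 3 RISDD and 3 NIL libraries, or 6 of the 12 deposited samples. The cells were primary fibroblasts of the genotype Hb9::GFP, in which the promoter of a motor neuron gene drives a green fluorescent reporter. Both groups were infected with a retrovirus, NIL, that encodes Ngn2, Isl1 and Lhx3 joined by 2A peptides. Both were moved 3 days after infection to N3 medium, which holds BDNF, GDNF, CNTF and FGF, and were collected at 4 days. RISDD cells also carried HRAS(G12V), an activated form of the small GTPase HRAS, placed before an internal ribosome entry site (IRES) that is followed by a SNAP tag fused to p53DD, a dominant-negative fragment of p53. From day 3 RepSox, which blocks the type I receptor of TGF-beta, was present for RISDD cells and absent for NIL cells. RISDD cells were sorted for SNAP staining, whereas the NIL sort took live single cells with no mark of infection. The other 2 groups of the series, SDD and SDDIR, served in the fit and in leaving out libraries. Both carried NIL, were given RepSox from day 3 and were sorted for SNAP. SDD had SNAP-p53DD without HRAS(G12V), and SDDIR had the parts of RISDD in the reverse order, with SNAP-p53DD before the IRES and HRAS(G12V) after it. The comparison of RISDD with NIL sums everything that was added to the conversion factors, and the shares of HRAS(G12V), p53DD, RepSox and the sort cannot be told apart in it. The labels name the libraries of a group A, B and C without saying whether they came from separate cultures or animals, so p-values measure the spread between these libraries, which may be technical.

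RAS is a membrane switch that, when loaded with GTP, turns on the RAF, MEK and ERK kinases, and ERK in turn induces transcription factors, growth factors and the phosphatases and Sprouty proteins that restrain it. p53 induces arrest and death genes after stress, strong RAS signalling included, and a dominant-negative fragment joins its tetramers and blocks them. TGF-beta signalling sustains collagen and contractile genes in fibroblasts, and the proneural factor Ngn2 with the LIM factors Isl1 and Lhx3 directs cells towards a motor neuron fate.

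The values are gene counts that the authors divided by 1 constant per library, called scaled counts here. Multiplying them back gave whole counts, called reads here and possibly rounded estimates, of 14918283 to 23385212 in the 6 libraries. The first principal component, with 54.3% of the variance, placed RISDD at 97.7 to 103 and NIL at -83 to -52.3. Within NIL, library C differed from A and B: it lay at -114 on the second component (19.1% of the variance), mitochondrially encoded genes took 0.537% of its reads against 3.62% and 4.00%, and the delivered factors 2.81% against 1.41% and 1.43%. Group counts below are therefore followed by the counts without NIL C. Fibroblast identity was visible in the NIL libraries, where Thy1, a fibroblast surface protein, read 7285, 5747 and 10080 and Pdgfra, a receptor of mesenchymal cells, 3682, 3048 and 3541.

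RISDD and NIL differed in 6629 of 14207 tested genes, 3294 higher and 3335 lower in RISDD (limma on log2(scaled count + 1) over all 4 groups of the series, Benjamini-Hochberg adjusted p under 0.05). That is 46.7% of tested genes, with 23.2% higher and 23.5% lower, so the counts of any gene group are read against these shares. The gene lists were chosen with earlier results of these data known. A list count beside these shares therefore describes the listed genes and is no test of the group. Of the called genes, 3919 differed by at least 2-fold, 1792 higher and 2127 lower. The lowest library of one group was above the highest of the other for 6500 of the 6629 called genes. Over all tested genes, called or not, 8053 of 14207 (56.7%) had no such overlap. Without NIL C 8416 genes were called, 4285 higher and 4131 lower, and 6353 of the 6629 (95.8%) were called in the same direction. A fit on the NIL and RISDD libraries alone called 4743 genes, 2176 of them higher and 2567 lower. Below, called and not called refer to this limma test unless another tool is named. Fold changes are on the log2(scaled count + 1) scale, which understates the change of low genes. Where a list below has no member higher, or none lower, for the whole list or for the EGF receptor ligands or receptors, the count in that direction was also 0 at an unadjusted p under 0.05, in edgeR and in DESeq2. In bulk RNA, fewer cells of a type and less RNA per cell cannot be told apart.

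**Figure D1:**
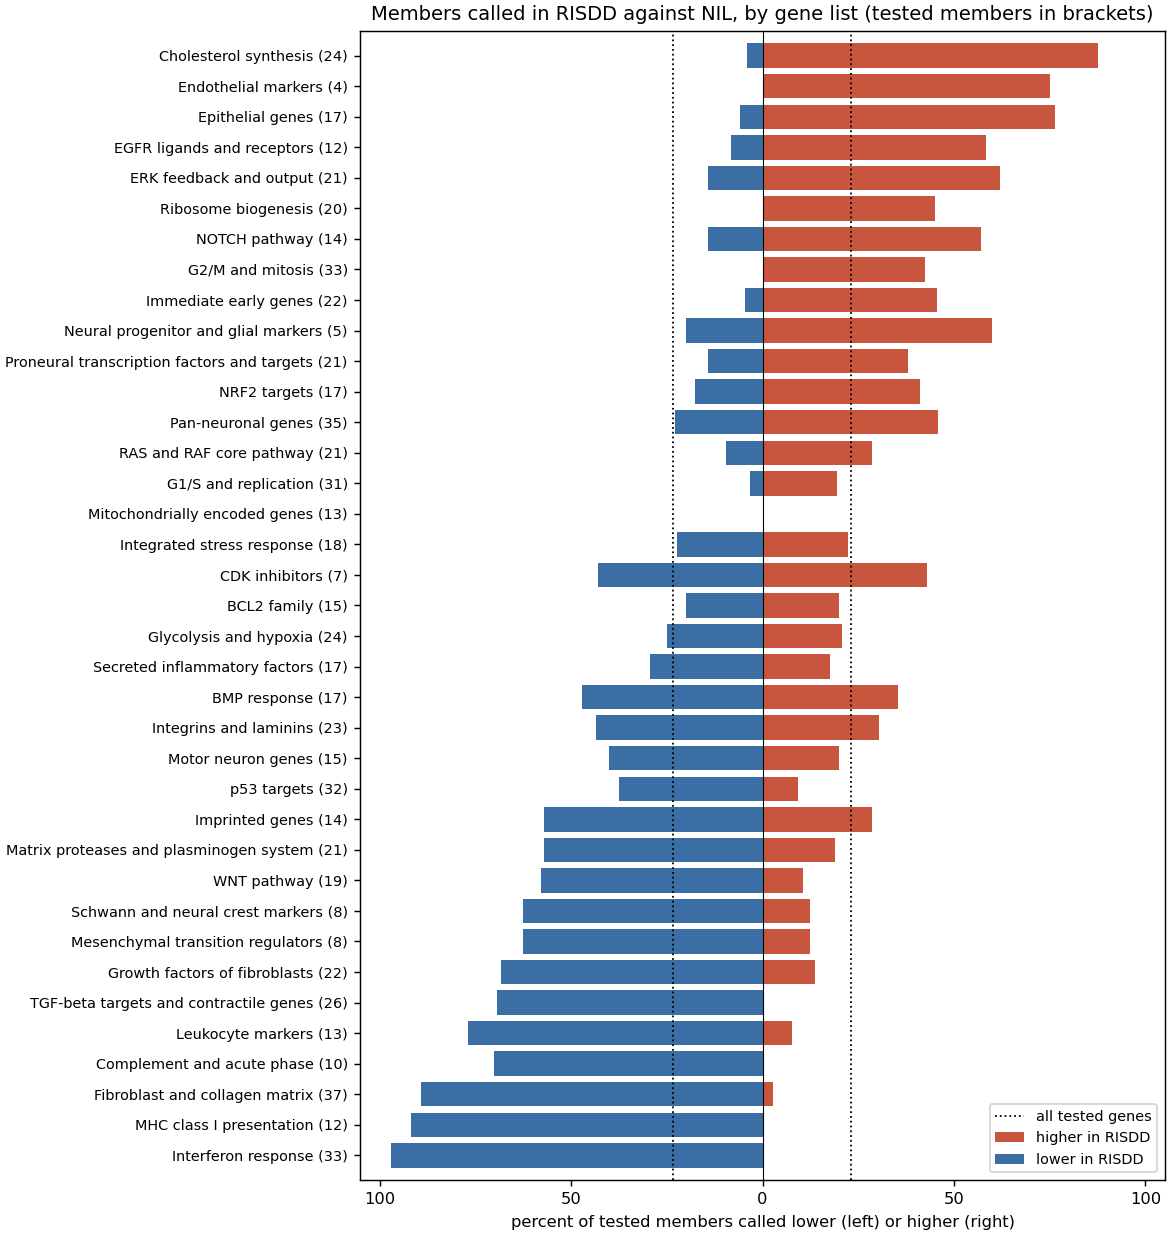
Share of the tested members of each gene list, in percent, that was higher (right) or lower (left) in RISDD than in NIL at an adjusted p under 0.05, with the dotted lines at the shares over all tested genes. Interferon, matrix and complement lists extend to the left, and cholesterol synthesis and epithelial genes to the right.

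**Figure D2:**
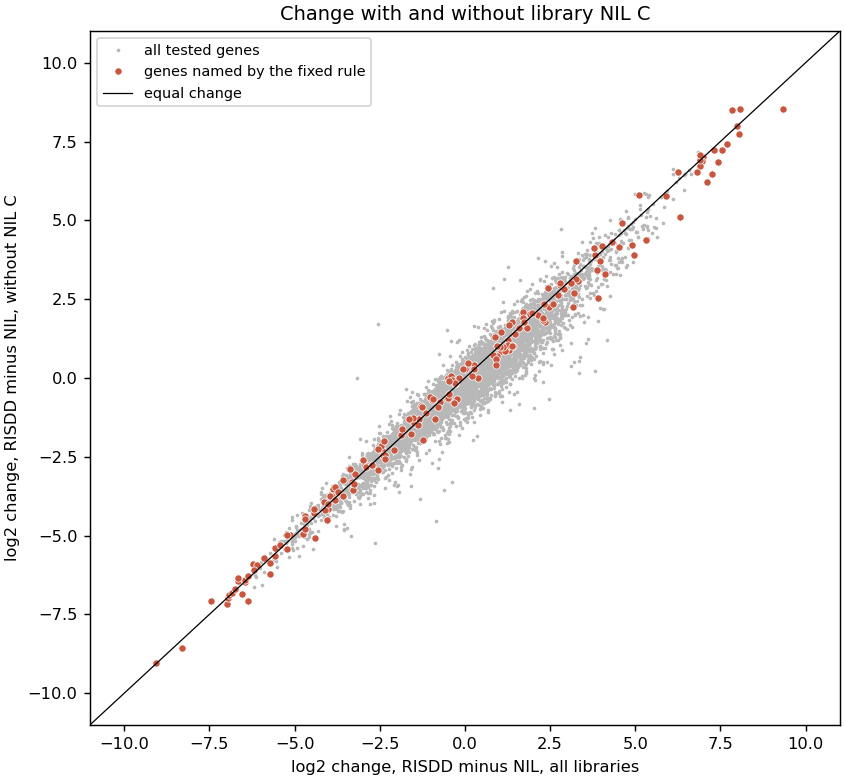
Log2 change of RISDD against NIL with all 3 NIL libraries (horizontal axis) and without NIL C (vertical axis), for all tested genes in grey and the named genes in red. All 161 named genes that were called with every library were also called without NIL C.

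The delivered factors were at similar levels in both groups apart from NIL C. Neurog2, the gene of Ngn2, read 59690, 58400 and 167300 in NIL A, B and C and 57910, 59720 and 59610 in RISDD A, B and C. Isl1 read 106200, 112000 and 163500 in NIL and 103900, 118100 and 108700 in RISDD, and Lhx3 100500, 102300 and 258400 in NIL and 100900, 110100 and 104100 in RISDD. NIL C was the highest library for all 3 genes, and none was called (adjusted p = 0.245, 0.425 and 0.315 in limma). Trp53, whose row may also hold reads of the p53DD transgene, read 2873, 3058 and 3674 in NIL A, B and C and 43130, 44580 and 46180 in RISDD A, B and C. The groups did not overlap, and Trp53 was 14-fold higher in RISDD (log2 change 3.81 ± 0.142 SE, adjusted p = 4.56e-08). Hras read 1238, 1129 and 2342 in NIL and 1234, 1093 and 1088 in RISDD and was not called (adjusted p = 0.195). This row does not check the HRAS label, because the labels do not say which species' sequence was delivered.

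ERK-induced genes were higher in RISDD, led by Dusp5 and by ligands of the EGF receptor. Among ERK feedback and output genes 13 of 21 were higher and 3 lower, beside 23.2% and 23.5% of all tested genes, with a median log2 change of 0.79 beside 0.05 over all tested genes (15 higher and 2 lower without NIL C). Of the 5 phosphatases 4 were higher. Dusp5, a nuclear phosphatase of ERK, read 514, 639.9 and 834 in NIL A, B and C and 10550, 10820 and 10300 in RISDD A, B and C. Every RISDD library was above every NIL library, a 16.2-fold difference (log2 change 4.02 ± 0.172 SE, adjusted p = 1.18e-07). Dusp2, a related phosphatase, read 22.8, 12.3 and 0 in NIL and 151, 96.1 and 71.1 in RISDD, with no reads in NIL C, and was 15-fold higher in RISDD (adjusted p = 0.00821). It was 28-fold without NIL A and 5.75-fold without NIL C. Of the 6 Sprouty and Spred inhibitors of RAS signalling 4 were higher and 1 lower. Spry4 read 1101, 1435 and 1010 in NIL A, B and C and 7418, 7743 and 8013 in RISDD A, B and C and was 6.6-fold higher (log2 change 2.72 ± 0.158 SE, adjusted p = 7.43e-07). Spry1 moved the other way, from 2955, 2188 and 3604 in NIL to 601, 531 and 449 in RISDD, 5.45-fold lower (log2 change -2.45 ± 0.213 SE, adjusted p = 1.04e-05). Neither gene overlapped between the groups. Spry2, Elk3, Etv5 and Etv1, the most abundant members that were not called, had log2 changes of 0.27, -0.28, 0.27 and 0.40, and of these Spry2 and Etv5 were called without NIL C (log2 0.40 and 0.27, adjusted p = 0.00368 and 0.0274). Etv5 was also called without NIL B and in DESeq2 (adjusted p = 0.0475 and 0.0258).

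Genes of the RAS and RAF core pathway moved less, with 6 of 21 higher and 2 lower and a median of 0.25 (9 and 2 without NIL C, and 4 lower without NIL B). The shares over all tested genes were 23.2% higher and 23.5% lower. None of the 8 kinases of the cascade was called in limma, with 1 higher and 2 lower at an unadjusted p under 0.05 and with 1 lower in edgeR and 2 in DESeq2, whereas 5 of the 7 tested exchange factors and GTPase-activating proteins were higher and 1 lower. Rasa1, a GTPase-activating protein of RAS, read 2423, 2905 and 826 in NIL and 9200, 9497 and 8709 in RISDD, 5.07-fold higher (log2 change 2.34 ± 0.364 SE, adjusted p = 0.000478). Nras rose 2.32-fold (adjusted p = 0.00039), Sos2, an exchange factor, 2.48-fold (adjusted p = 0.00468), and Mras fell 3.66-fold (adjusted p = 3.62e-06).

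EGF receptor ligands rose, whereas no receptor did. Of the 7 tested ligands 6 were higher and none lower, while of the 3 receptors 1 was lower. Areg, the ligand amphiregulin, read 249.8, 379 and 241 in NIL A, B and C and 16220, 16910 and 18140 in RISDD A, B and C. The RISDD libraries lay within a narrow range far above NIL (log2 change 5.91 ± 0.227 SE, adjusted p = 5.97e-08). Btc, betacellulin, read 23.6, 53.5 and 2.91 in NIL and 424, 504 and 739.8 in RISDD, with NIL C the lowest, and was 31.2-fold higher (adjusted p = 0.000498). This was 55.2-fold without NIL B and 14.8-fold without NIL C. Nrg1, a ligand of ERBB receptors, was 5.51-fold higher, from 244, 353 and 194 to 1187, 1840 and 1295 (adjusted p = 2.99e-05). Ereg, epiregulin, was 4.94-fold higher (adjusted p = 0.00216), with NIL B at 3184 above the other NIL libraries, and was 7.42-fold without NIL B. Over the whole list 7 of 12 were higher and 1 lower, with a median of 0.78 (6 and 1 without NIL C).

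Immediate early genes, transcribed within minutes of a growth signal, split by family. All 3 NR4A nuclear receptors were higher. Of the others, 4 of the 7 AP-1 genes and 3 of the 7 zinc finger genes were higher and 1 zinc finger gene was lower, and none of the 5 others was called in limma, with 1 at an unadjusted p under 0.05, 0 in edgeR and 1 in DESeq2. Nr4a1 read 248, 174 and 401 in NIL A, B and C and 7050, 5422 and 6652 in RISDD A, B and C. NIL and RISDD did not overlap, and the difference was 24.4-fold (log2 change 4.61 ± 0.288 SE, adjusted p = 1.25e-06). Nr4a3 and Nr4a2 were 19.9-fold and 10.0-fold higher (adjusted p = 8.62e-07 and 2.38e-05). Fosb, an AP-1 subunit, went from 146, 127 and 192 to 1090, 1005 and 1079, 6.89-fold (adjusted p = 1.67e-05). The most abundant members that were not called were Egr1 (17720, 14690 and 21160 in NIL and 13460, 13830 and 15930 in RISDD, adjusted p = 0.112), Jun (adjusted p = 0.967), Jund (adjusted p = 0.809) and Ier2 (adjusted p = 0.873). NIL C was the highest NIL library for these 4 genes. Of them Jun and Jund were called higher without NIL C (log2 0.27 and 0.48, adjusted p = 0.00802 and 0.00913), and Egr1 lower without NIL B (log2 -0.43, adjusted p = 0.0256). In all, 10 of 22 were higher and 1 lower, with a median of 0.25 (13 and 1 without NIL C, and 3 lower without NIL B).

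**Figure D3:**
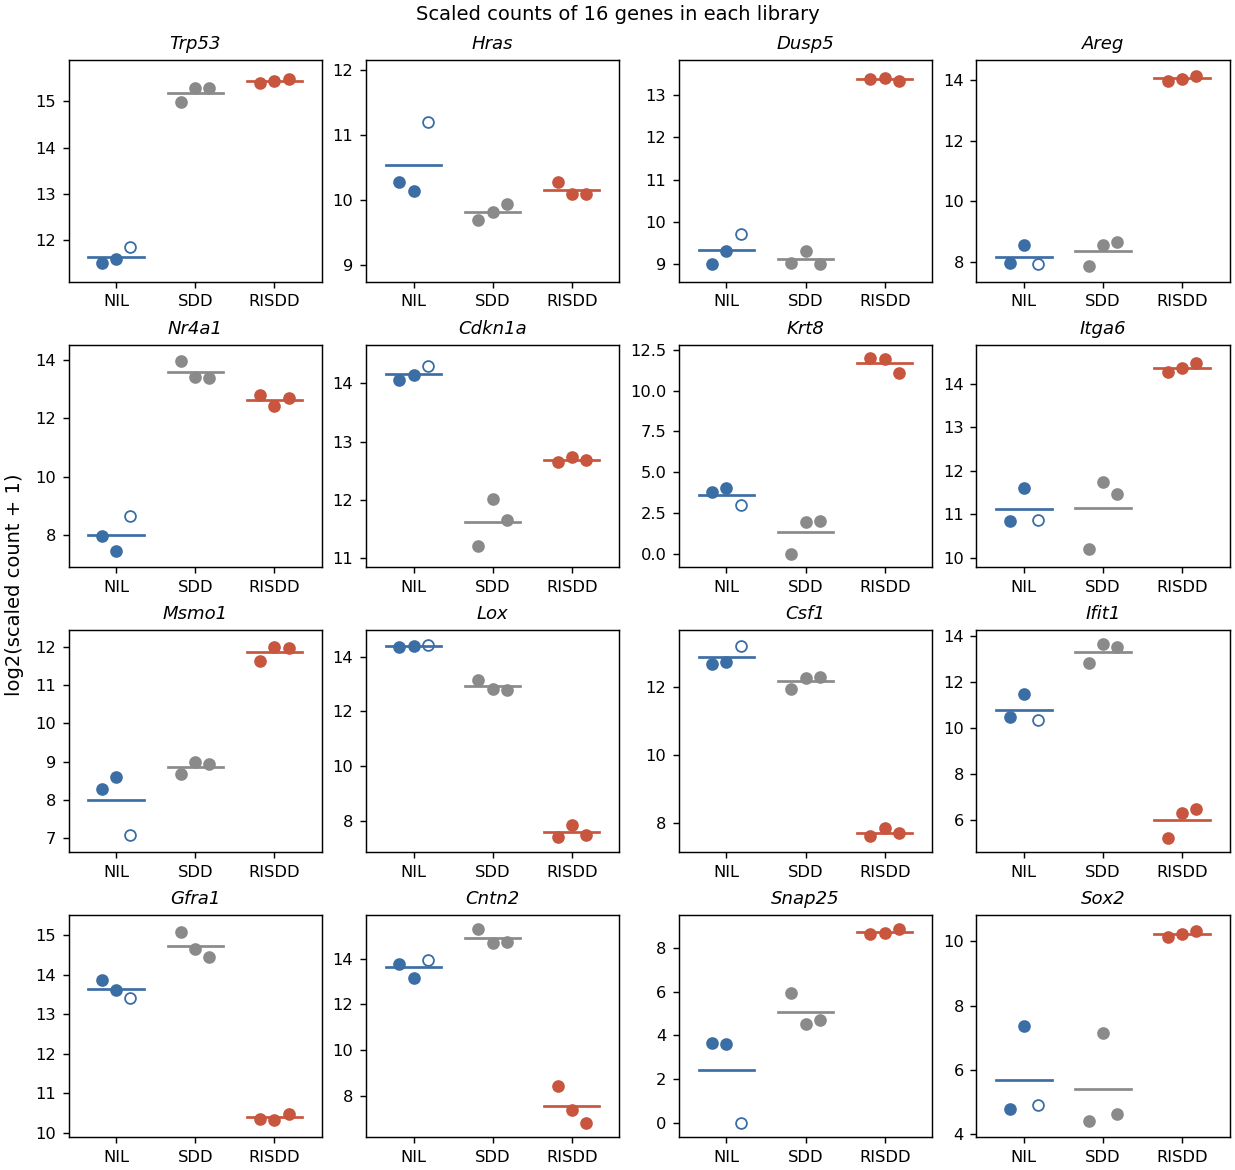
Scaled count of 16 named genes on a log axis in each NIL, SDD and RISDD library, with a line at each group's mean and an open circle for NIL C. For Dusp5 the RISDD libraries lie between 10300 and 10820 and the NIL libraries between 514 and 834.

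Targets of p53 were lower more often than higher. Of 32 tested targets 12 were lower and 3 higher, with a median of -0.36, and 19 were lower and 3 higher without NIL C. Leaving out any 1 RISDD library left 1 higher. Cdkn1a, the cyclin-dependent kinase inhibitor p21, read 17160, 18070 and 20230 in NIL A, B and C and 6426, 6779 and 6573 in RISDD A, B and C. The groups did not overlap, and Cdkn1a was 2.8-fold lower in RISDD (log2 change -1.48 ± 0.176 SE, adjusted p = 8.06e-05). Fas, a death receptor, read 292, 352 and 125 in NIL and 9.89, 11.1 and 20.6 in RISDD, 16.6-fold lower (log2 change -4.05 ± 0.431 SE, adjusted p = 3.84e-05). Ephx1, an epoxide hydrolase, read 2522, 2366 and 2453 in NIL and 273, 234 and 229 in RISDD, 9.96-fold lower (log2 change -3.32 ± 0.146 SE, adjusted p = 1.33e-07). RISDD was below every NIL library for both genes. Dcxr, a carbonyl reductase, was 7.56-fold lower and Ddit4l, an inhibitor of mTOR signalling, 5.9-fold lower (adjusted p = 1.07e-05 and 0.000769). Mdm2, the ubiquitin ligase of p53, read 5693, 6598 and 4450 in NIL and 6303, 6150 and 6811 in RISDD and was not called (adjusted p = 0.248). Ccng1, Trp53inp1 and Rps27l were not called either (adjusted p = 0.557, 0.0609 and 0.38). In each of them NIL C was far below NIL A and B, as with Trp53inp1 at 5308, 5372 and 1126 in NIL and 1440, 1352 and 1301 in RISDD. Without NIL C all 3 were lower in RISDD, by log2 -0.67, -1.97 and -0.78 (adjusted p = 8.78e-05, 9.73e-07 and 1.37e-05). Trp53inp1 was also lower with all libraries in edgeR (adjusted p = 0.0163), in DESeq2 (adjusted p = 0.00147) and with the replicate letter as a block (adjusted p = 0.0292).

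Cell cycle inhibitors moved in both directions. Of 7 tested CDK inhibitors 3 were higher and 3 lower, with the same counts without NIL C. Cdkn2c fell 5.46-fold (adjusted p = 4.38e-05) and Cdkn2d 2.02-fold (adjusted p = 0.0276), while Cdkn1c, the imprinted inhibitor p57, rose 3.27-fold from 847, 700.1 and 1735 to 3229, 3387 and 3297 (adjusted p = 0.00144). The call of Cdkn2d was lost without NIL A, RISDD A, RISDD B or RISDD C (adjusted p = 0.0559, 0.0575, 0.0786 and 0.0736). Cdkn2a, whose row covers 2 overlapping proteins, p16 and p19ARF, read 1143, 1351 and 2075 in NIL and 3305, 2712 and 2563 in RISDD (chosen after its values were seen). It was 1.93-fold higher without overlap (adjusted p = 0.00854). The BCL2 family sets the threshold for apoptosis. Of its 15 tested genes 3 were higher and 3 lower, beside 23.2% and 23.5% of all tested genes (3 and 5 without NIL C). The higher count was 1 when RISDD B, RISDD C, SDD C or either SDDIR library was left out. Bcl2l11, the pro-apoptotic BIM, rose 2.41-fold (adjusted p = 2.93e-05). Bax and Bad, which promote apoptosis, and Bcl2l2, which opposes it, fell 1.97-, 1.97- and 1.67-fold (adjusted p = 0.00227, 0.0119 and 0.000699). Bad was not called in the fit on NIL and RISDD alone (adjusted p = 0.0519).

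Replication and mitosis genes that were called changed by small amounts. Of 31 genes of the G1/S transition and replication 6 were higher and 1 lower, beside 23.2% and 23.5% of all tested genes. The counts were 12 higher and 1 lower without NIL C and 6 higher and 8 lower without NIL B. Orc1, an origin recognition subunit, read 129, 120.4 and 104 in NIL and 362, 302 and 325 in RISDD, 2.79-fold higher (log2 change 1.48 ± 0.151 SE, adjusted p = 2.99e-05). Ccne1, cyclin E1, was lower, from 1444, 1061 and 1413 to 555, 487 and 476 (adjusted p = 2.93e-05). Prim1, a primase subunit, and E2f2, a transcription factor of the cell cycle, rose 2.1-fold and 2.09-fold (adjusted p = 0.00212 and 0.0245). E2f2 was not called without NIL A, NIL B or RISDD C (adjusted p = 0.0648, 0.0727 and 0.104). Of 33 mitotic genes 14 were higher and none lower, with a median of 0.56 (16 and 0 without NIL C). This count rested on single libraries: it was 5 without NIL B or without RISDD A, 4 without RISDD C, 9 without SDD C or either SDDIR library, and 4 in the fit on NIL and RISDD alone. NIL B was the lowest NIL library in the summed level of the list, at 24420 beside 42340 in NIL A and 34440 in NIL C, and RISDD ranged from 38420 to 48460. Kif20b and Cenpe, motor proteins of mitosis, rose 2.65-fold and 2.4-fold (adjusted p = 0.00377 and 0.00144). The spindle checkpoint kinase Bub1 and the cytokinesis factor Ect2 rose 2.25-fold and 1.91-fold (adjusted p = 0.00626 and 0.013). Ect2 was not called without RISDD C (adjusted p = 0.0545) or, like Bub1, with a correction for GC content (adjusted p = 0.203, and 0.0592 for Bub1).

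The fibroblast matrix programme was lower in RISDD almost throughout. Of 37 tested matrix and fibroblast genes 33 were lower and 1 higher, with a median log2 change of -2.83 (35 and 1 without NIL C). All 9 collagens, all 6 proteoglycans and 8 of the 9 genes of elastic fibres and crosslinking were among the lower genes. Lox, the enzyme that crosslinks collagen and elastin, read 21300, 21790 and 22040 in NIL A, B and C and 168, 226 and 176 in RISDD A, B and C. The NIL libraries agreed closely and lay far above RISDD, a 115-fold difference (log2 change -6.84 ± 0.143 SE, adjusted p = 2.32e-09). Mfap4, a microfibril protein, read 13040, 6031 and 18990 in NIL and 80.4, 58.6 and 56.9 in RISDD, 174-fold lower (log2 change -7.45 ± 0.396 SE, adjusted p = 4.00e-07). Eln, elastin, read 2326, 1509 and 3646 in NIL and 30.9, 31.4 and 29.2 in RISDD, 74.3-fold lower (log2 change -6.22 ± 0.312 SE, adjusted p = 3.02e-07). NIL varied more for these 2 genes than for Lox, with no overlap. Ogn, the proteoglycan osteoglycin, was 82.9-fold lower, from 534, 611 and 130.1 to 1.24, 7.08 and 3.16 (adjusted p = 2.54e-05), and 136-fold without NIL C. Summed over the list, the level was 1367000, 1368000 and 1943000 in NIL and 232300, 232300 and 221000 in RISDD. The 3 genes of the list that limma did not call were Fbln1, Ddr2 and Twist2 (adjusted p = 0.907, 0.283 and 0.0671). Twist2 was lower in edgeR and in DESeq2 (adjusted p = 0.0337 and 0.0135) and without any 1 NIL library, and Ddr2 was lower without NIL C (adjusted p = 0.000518). The 1 higher gene was Prrx1, a mesenchymal transcription factor at 6402, 6592 and 3789 in NIL and 7685, 8090 and 8719 in RISDD, which was not called without RISDD A, B or C (adjusted p = 0.0526, 0.066 and 0.0883). These 4 were named after their values were seen.

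**Figure D4:**
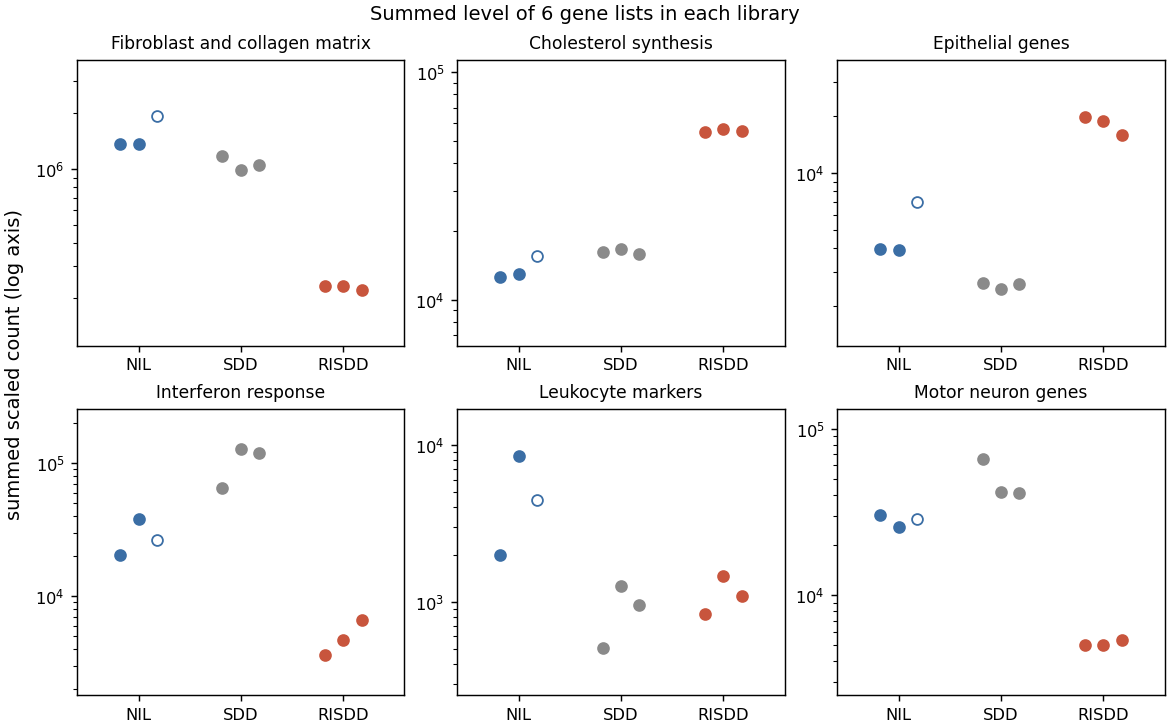
Summed scaled count of 6 gene lists (log axis) in each NIL, SDD and RISDD library. The fibroblast matrix sum lies between 1367000 and 1943000 in NIL and between 221000 and 232300 in RISDD.

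TGF-beta targets and contractile genes were lower as well. Of 26 tested 18 were lower and none higher, with a median of -1.58 (20 lower and 1 higher without NIL C). Of the 8 contractile genes 7 were lower, as were 7 of the 12 targets and 4 of the 6 ligands and receptors. Ccn2, a matricellular target of TGF-beta, read 2721, 3294 and 4618 in NIL A, B and C and 212, 257 and 138 in RISDD A, B and C. RISDD was lower in every library, 17.6-fold (log2 change -4.13 ± 0.263 SE, adjusted p = 1.38e-06). Tagln, an actin-binding protein of contractile cells, read 6468, 5634 and 12850 in NIL and 665, 742 and 301 in RISDD, 14.6-fold lower (log2 change -3.87 ± 0.393 SE, adjusted p = 2.88e-05). RISDD C was the lowest library for both genes. Col8a1, which encodes a collagen chain, and Ltbp2, a matrix protein named for the LTBP family, were 53.3-fold and 25.6-fold lower (adjusted p = 5.18e-07 and 3.12e-07).

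Genes of the related BMP pathway changed in both directions, with 6 of 17 higher and 8 lower (6 and 6 without NIL C). The ligand Bmp4 read 1276, 965 and 1687 in NIL A, B and C and 17.3, 29.3 and 16.6 in RISDD A, B and C. It was 59.7-fold lower in RISDD without overlap (log2 change -5.90 ± 0.272 SE, adjusted p = 1.80e-07), whereas the ligand Bmp7 rose 9.61-fold, from 8.14, 7.8 and 22.3 to 162, 116 and 86.2 (adjusted p = 0.000151). Smad6, an inhibitory SMAD, fell 7.96-fold (adjusted p = 8.46e-05).

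Genes by which cells reshape and hold matrix were split by kind. In the list of proteases and the plasminogen system 4 of 21 were higher and 12 lower, with a median of -0.88 and the same counts without NIL C, and 4 of the 5 inhibitors were lower. Mmp10, a stromelysin, read 56.1, 144 and 15.5 in NIL and 785, 1222 and 756 in RISDD, 17.4-fold higher (log2 change 4.12 ± 0.718 SE, adjusted p = 0.00101) and 29.3-fold without NIL B and 9.89-fold without NIL C. Mmp12, a macrophage elastase, read 24.4, 114 and 6.79 in NIL and 111, 709 and 209 in RISDD, 9.04-fold higher with overlapping groups (adjusted p = 0.0153). Its difference was 18.2-fold without NIL B, 4.74-fold without NIL C, 13.6-fold without RISDD A and 5.43-fold without RISDD B, and it was not called without RISDD B (adjusted p = 0.0665) or in the fit on NIL and RISDD alone (adjusted p = 0.0601). Adamts5, an aggrecanase, and Timp3, a metalloproteinase inhibitor, were 16.3-fold and 9.82-fold lower (adjusted p = 8.96e-06 and 7.43e-07). Of 14 tested integrins 6 were higher and 4 lower, and of 9 laminins 1 was higher and 6 were lower (7 higher and 10 lower together, 8 and 12 without NIL C). Itga6, a laminin-binding integrin subunit, read 1855, 3110 and 1880 in NIL A, B and C and 19910, 21100 and 22890 in RISDD A, B and C. It was 9.6-fold higher without overlap (log2 change 3.26 ± 0.345 SE, adjusted p = 3.68e-05). Itgb7, a beta integrin best known from lymphocytes, read 26.9, 43.5 and 152 in NIL and 2021, 1608 and 2400 in RISDD, 34.5-fold higher (adjusted p = 9.49e-05). Lamb3, a chain of the epithelial laminin-332, read 1.63, 0 and 1.94 in NIL and 129, 172 and 152 in RISDD, 76.2-fold higher (adjusted p = 4.08e-06). Itgb5, a vitronectin-binding subunit, fell 9.36-fold (adjusted p = 1.95e-07). NIL C was the highest NIL library for Itgb7, at 152, and its difference was 56.4-fold without NIL C.

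Growth factors and binding proteins of fibroblasts were lower in 15 of 22 cases and higher in 3, with a median of -1.31 and the same counts without NIL C. Ptn, the heparin-binding factor pleiotrophin, read 4902, 4087 and 4831 in NIL A, B and C and 40.8, 32.4 and 38.7 in RISDD A, B and C. The groups were far apart, 120.5-fold (log2 change -6.91 ± 0.214 SE, adjusted p = 2.95e-08). Gas6, the ligand of TAM receptor kinases, and the IGF binding proteins Igfbp2 and Igfbp5 were 15-, 14.2- and 9.66-fold lower (adjusted p = 3.26e-07, 4.45e-06 and 1.43e-05).

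Several epithelial genes that were near 0 in NIL were among the largest rises. Of 17 tested epithelial genes 13 were higher and 1 lower, with a median of 3.76 (13 and 1 without NIL C). The other 6 of the 23 genes in the list, Cldn3, Cldn7, Ocln, Tjp3, Esrp1 and Ovol1, did not reach the minimum level, and the highest value among them in NIL or RISDD was 11.1. A gene at or near 0 in NIL passed that minimum through the libraries where it was high. Krt8, a keratin of simple epithelia, read 13, 15.6 and 6.79 in NIL A, B and C and 4070, 3934 and 2153 in RISDD A, B and C. Its partner Krt18 read 36.6, 78 and 77.7 in NIL and 8402, 7632 and 6064 in RISDD. Both keratins were low in every NIL library, and RISDD exceeded NIL 267-fold and 118-fold (log2 change 8.06 ± 0.557 SE, adjusted p = 2.21e-06 for Krt8, and log2 change 6.89 ± 0.397 SE, adjusted p = 7.05e-07 for Krt18). Dsg2, a desmosomal cadherin, read 2.44, 6.69 and 0 in NIL and 2398, 1600 and 1823 in RISDD, 642-fold higher (log2 change 9.33 ± 0.581 SE, adjusted p = 1.24e-06), and 1030-fold without NIL B and 372-fold without NIL C. Cdh1, E-cadherin, read 0, 2.23 and 0 in NIL and 71.7, 314 and 198 in RISDD. With 2 reads in all of NIL against 619 in RISDD, its ratio was 319 (95% interval 87.9 to 2640), an interval that covers counting error only. Cldn4 and Cldn6, tight junction proteins, had no reads in NIL and were at least 27.8-fold and at least 18.9-fold higher in RISDD, against a floor of 3 reads over the NIL group. Krt7, Krt19 and Jup were not called (adjusted p = 0.443, 0.316 and 0.16), and Dsp, desmoplakin, was the 1 lower gene, at 839.8, 882 and 864 in NIL and 110.1, 206 and 175 in RISDD (named after its values were seen).

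Regulators of the mesenchymal state were lower in 5 of 8 cases and higher in 1 (6 and 1 without NIL C). Snai2, a repressor of epithelial genes, read 548, 556 and 378 in NIL and 176, 159 and 148 in RISDD, 3.02-fold lower (log2 change -1.59 ± 0.197 SE, adjusted p = 0.000106). Cdh11, a mesenchymal cadherin, fell 2.6-fold, and the transcription factors Snai1 and Twist1 fell 2.43-fold and 2.41-fold (adjusted p = 3.24e-05, 0.00876 and 0.00268). NIL C was the highest NIL library for Snai1 and Twist1.

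The 15 largest rises, taken among called genes that reached a group mean of 100 and did not overlap, included further genes of epithelia and neurons. Aldh1a3, which makes retinoic acid, read 35, 41.2 and 30.1 in NIL A, B and C and 5355, 6089 and 6005 in RISDD A, B and C. The RISDD libraries were far above every NIL library, 161-fold (log2 change 7.33 ± 0.296 SE, adjusted p = 8.49e-08). Pcdh8, a protocadherin, read 6.51, 2.23 and 11.7 in NIL and 1994, 1520 and 2046 in RISDD, 273-fold higher (log2 change 8.09 ± 0.454 SE, adjusted p = 5.85e-07). Krt6a, a keratin of stressed epidermis with near-identical copies among which reads may be split, had no reads in NIL and 161, 246 and 402 in RISDD, at least 303-fold higher. Mal2, a protein of epithelial transport, was at least 155-fold higher and the row Idi1-ps1, a pseudogene that may share reads with Idi1, at least 124-fold. Scn9a, a neuronal sodium channel, had 2 reads in NIL and 926 in RISDD, a ratio of 477 (95% interval 132 to 3950). Lat, an adaptor known from T cells, had 1 read against 494, a ratio of 509 (95% interval 90.9 to 20100). Fezf1, a transcription factor of the forebrain, read 0, 1.11 and 4.85 in NIL and 633, 508 and 454 in RISDD, and Nppb, a natriuretic peptide, 4.88, 1.11 and 0 in NIL and 200.4, 531 and 611 in RISDD. They were 228-fold and 174-fold higher (adjusted p = 1.04e-05 and 5.58e-05). Fezf1 was 150-fold without NIL A and 363-fold without NIL C, and Nppb 277-fold without NIL A and 114-fold without NIL C. The other rises were Klk7 (188-fold), Slc9a2 (151-fold), Anxa10 (138-fold) and Ceacam1 (125-fold), with adjusted p = 1.94e-05, 1.65e-05, 3.42e-05 and 9.79e-06. Slc9a2 was 277-fold without NIL B and 87.9-fold without NIL C, Anxa10 232-fold without NIL B and 73.7-fold without NIL C, and Klk7 283-fold without RISDD A.

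The 15 largest falls were taken by the same rule. Serpina3n, a serine protease inhibitor from a family of close copies, read 6873, 5125 and 6175 in NIL A, B and C and 12.4, 6.07 and 14.2 in RISDD A, B and C. It was 533-fold lower in RISDD, with no overlap (log2 change -9.06 ± 0.298 SE, adjusted p = 2.97e-08). Shisa3 had no reads in RISDD against 304, 476 and 209.7 in NIL, at least 329-fold lower. C7, a complement component, had 2 reads in RISDD and 513 in NIL, a ratio of 249 (95% interval 68.6 to 2060). Mgp, an inhibitor of calcification, read 5905, 7896 and 6462 in NIL and 50.7, 82.9 and 34.8 in RISDD, 125-fold lower (adjusted p = 8.57e-08). Tnmd, a tendon protein, read 234, 205 and 109.7 in NIL and 0, 1.01 and 2.37 in RISDD, and Col14a1, a fibril-associated collagen, 2205, 1708 and 2305 in NIL and 21, 28.3 and 22.9 in RISDD. All 3 genes were higher in every NIL library than in any RISDD library. Tnmd and Col14a1 were 92.4-fold and 82.6-fold lower (adjusted p = 3.71e-06 and 2.97e-08), and Frmpd3 and C1qtnf2 101-fold and 100.4-fold (adjusted p = 7.04e-08 and 2.81e-06). Fcrl2 had 3 reads in RISDD against 599 in NIL, a ratio of 194 (95% interval 66 to 942). Cx3cr1, a chemokine receptor of macrophages, had 2 against 492, a ratio of 239 (95% interval 65.7 to 1980).

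Interferon-stimulated genes were lower in RISDD. Of 33 tested 32 were lower and none higher, with a median log2 change of -2.86, and the counts were the same without NIL C. The lower genes were 19 of 20 effectors, all 8 sensors and transcription factors and all 5 GTPases. Many of their promoters hold the interferon-stimulated response element, at which STAT and IRF factors bind. In RefSeq promoters (GRCm38.p6, 250 bases before to 50 after the start), the letters GAAANNGAAA stood on either strand in 15 of the 22 matched interferon promoters (68.2%), beside 943 of 27025 promoters (3.49%) and 324 of 10692 promoters of tested genes (3.03%). The 5 windows below are shown because their genes were among the lower ones and each holds this element, printed along the strand of the gene, 5′ to 3′. Capitals mark 1 match per window, which reads as the reverse complement of these letters where the match is on the other strand. Another 2 motifs were searched in the same promoters. The AP-1 site TGANTCA stood in 7 of the 22 interferon promoters (31.8%), beside 548 of 10692 promoters of tested genes (5.13%), in 1 of 16 of the cholesterol synthesis list and in 0 of 9 of the EGF receptor list. Of these 7, 6 also held the interferon element, and no AP-1 match overlapped one. For the sterol regulatory element 1 fixed pattern of letters was searched, and its variants were not. That pattern stood in 0 of the 16 matched cholesterol synthesis promoters, beside 15 of 10692 promoters of tested genes (0.14%). With a pattern this rare, 0 of 16 cannot show whether these promoters lack the element. A match describes the letters searched and shows no binding.
Ifit1, chr19:34640779-34640838 (+): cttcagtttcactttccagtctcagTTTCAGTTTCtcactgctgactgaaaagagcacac
Ifit3, chr19:34583382-34583441 (+): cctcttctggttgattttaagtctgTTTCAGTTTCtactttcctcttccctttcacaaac
Cxcl10, chr5:92349068-92349127 (-): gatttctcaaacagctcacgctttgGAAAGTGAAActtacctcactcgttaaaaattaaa
Isg15, chr4:156200850-156200909 (-): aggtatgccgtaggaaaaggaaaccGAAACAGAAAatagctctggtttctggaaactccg
Gbp2, chr3:142620579-142620638 (+): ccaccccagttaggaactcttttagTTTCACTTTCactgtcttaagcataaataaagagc

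Ifit1, an antiviral protein that binds foreign RNA caps, read 1427, 2808 and 1310 in NIL A, B and C and 37.1, 78.9 and 88.5 in RISDD A, B and C. NIL B was the highest NIL library, and all NIL libraries were above RISDD, 26.8-fold (log2 change -4.75 ± 0.451 SE, adjusted p = 1.88e-05). Ifit3, whose row may share reads with its copy Ifit3b, read 1440, 3079 and 1733 in NIL and 71.7, 94 and 61.6 in RISDD, 26.1-fold lower (log2 change -4.71 ± 0.435 SE, adjusted p = 1.58e-05). Cxcl10, an interferon-induced chemokine, read 514, 1649 and 982 in NIL and 44.5, 62.7 and 64.8 in RISDD, 16.4-fold lower (log2 change -4.03 ± 0.588 SE, adjusted p = 0.000323). Iigp1, an immunity-related GTPase, was 52.3-fold lower (adjusted p = 3.91e-05). Isg15, a ubiquitin-like modifier, and Gbp2, a guanylate-binding protein, were named for their promoters and were 10.3-fold and 16.1-fold lower (adjusted p = 0.00124 and 0.000114). The summed level of the list was 20490, 38250 and 26330 in NIL and 3628, 4705 and 6592 in RISDD, and the 1 gene not called was Eif2ak2 (adjusted p = 0.245, named after its values were seen), which was lower without NIL C (adjusted p = 0.0358). Isg15 was 6.73-fold without RISDD A.

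Antigen presentation and complement genes were lower too. Of 12 tested MHC class I genes 11 were lower and none higher, as without NIL C, a count that was 7 without RISDD A or without RISDD B. Tap1, a peptide transporter, read 928, 1063 and 1483 in NIL A, B and C and 60.6, 61.7 and 103 in RISDD A, B and C. It was 15.4-fold lower without overlap (log2 change -3.95 ± 0.384 SE, adjusted p = 2.18e-05). Psmb8, an immunoproteasome subunit, Tap2 and the regulator Nlrc5 were 10.3-, 5.19- and 3.57-fold lower (adjusted p = 0.00038, 0.000329 and 0.0115). Of 10 tested complement and acute phase genes 7 were lower and none higher, with a median of -3.64 (8 and 0 without NIL C). C1s1, a protease of the classical pathway, read 610.3, 571 and 384 in NIL and 12.4, 13.2 and 12.7 in RISDD, 37.4-fold lower (log2 change -5.22 ± 0.212 SE, adjusted p = 8.49e-08). C1ra, C3 and the inhibitor Serping1 were 47.9-, 21.7- and 13.1-fold lower (adjusted p = 2.74e-06, 0.000715 and 3.10e-08), and C3 was 34-fold without RISDD B.

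Macrophage markers moved with these groups. Of 13 tested leukocyte markers 10 were lower in RISDD and 1 higher, with or without NIL C, and their summed level was 1977, 8475 and 4481 in NIL A, B and C and 839, 1458 and 1091 in RISDD. NIL B, the highest library for this sum, was also the highest NIL library for the interferon sum. C1qc, a complement chain made by macrophages, read 211, 780.3 and 576 in NIL and 4.95, 17.2 and 7.11 in RISDD, 47.7-fold lower (log2 change -5.58 ± 0.777 SE, adjusted p = 0.000239). Csf1r, the receptor that macrophages need, read 226, 1037 and 621 in NIL and 6.18, 19.2 and 11.9 in RISDD, 42.8-fold lower (log2 change -5.42 ± 0.872 SE, adjusted p = 0.000598) and 65.3-fold without NIL A. C1qb was 37-fold lower (adjusted p = 0.00145), and the 1 higher gene was the lysosomal protein Cd68 (adjusted p = 0.0249, named after its values were seen), which was not called without NIL A, RISDD B or RISDD C (adjusted p = 0.0774, 0.0578 and 0.095). The lymphocyte marker Cd3e stayed at or below 2.02. The part of such cells in the interferon and complement results was not tested. In SDD, described below, the leukocyte sum was 507 to 1252 and the interferon sum 64440 to 126700. The leukocyte sum does not describe its list evenly, as most of it in RISDD came from members other than C1qc, Csf1r and C1qb. The means of these 3 genes were 522, 628 and 575 in NIL, 91.9, 82.45 and 103 in SDD, and 9.75, 12.4 and 14.7 in RISDD.

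Secreted inflammatory factors were mixed, with 3 of 17 higher and 5 lower, as without NIL C (5 higher without NIL B). Over all tested genes 23.2% were higher and 23.5% lower. Csf1, the growth factor of macrophages, read 6548, 6813 and 9282 in NIL A, B and C and 199, 231 and 208 in RISDD A, B and C. It was 35-fold lower in RISDD, and no library of the groups overlapped (log2 change -5.13 ± 0.168 SE, adjusted p = 2.97e-08). The chemokines Cxcl12 and Ccl2 were 17.1-fold and 7.52-fold lower (adjusted p = 2.66e-06 and 0.00145). Il1rn, the antagonist of the interleukin-1 receptor, read 20.3, 122 and 11.7 in NIL and 466, 2027 and 929.5 in RISDD, 29.9-fold higher (log2 change 4.90 ± 0.796 SE, adjusted p = 0.000639). RISDD B was the highest library for Il1rn and NIL B the highest in NIL, and the difference was 58.4-fold without NIL B and 18.8-fold without NIL C.

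Motor neuron genes were not raised as a group at 4 days. Of 15 tested 3 were higher and 6 lower, with a median of -0.89 (3 and 7 without NIL C, and 1 higher without RISDD B). Another 5 of the list did not reach the minimum, among them Chat, the acetylcholine-synthesizing enzyme, which had no reads in any library. Gfra1, a GDNF co-receptor, read 14820, 12580 and 10920 in NIL A, B and C and 1309, 1289 and 1427 in RISDD A, B and C. It was 9.45-fold lower without overlap (log2 change -3.24 ± 0.174 SE, adjusted p = 4.19e-07). Prph, the neuronal filament peripherin, read 282, 183 and 389 in NIL and 7.42, 16.2 and 13.4 in RISDD, 21.3-fold lower (log2 change -4.42 ± 0.383 SE, adjusted p = 1.03e-05). Chodl, a marker of fast motor neurons, read 3562, 1638 and 1657 in NIL and 21, 10.1 and 18.2 in RISDD, 127-fold lower (log2 change -6.99 ± 0.456 SE, adjusted p = 1.60e-06). NIL A was the highest library for Chodl. Slit3, an axon guidance ligand, fell 26.1-fold (adjusted p = 3.85e-07). The 3 higher genes were Slc5a7, the choline transporter of cholinergic neurons, at 224, 269.8 and 83.5 in NIL and 967, 793 and 842 in RISDD (5.01-fold, adjusted p = 0.000794), Nkx6-1 and Foxp1 (adjusted p = 0.0203 and 0.0216), named after their values were seen. Nkx6-1 was not called without RISDD A or RISDD B (adjusted p = 0.0756 and 0.0613), nor Foxp1 without NIL A, RISDD B or RISDD C (adjusted p = 0.0641, 0.0752 and 0.0934). Ebf2, Ret, Aldh1a2 and Onecut2 were not called (adjusted p = 0.0907, 0.0856, 0.441 and 0.0819), and Ebf2 was lower without NIL C (log2 -1.31, adjusted p = 0.00516). With all libraries Ebf2 was lower in DESeq2 and with the replicate letter as a block (adjusted p = 0.033 and 0.0363), and Ret was lower without RISDD B (adjusted p = 0.0456). The summed level was 25540 to 30430 in NIL and 5033 to 5351 in RISDD. Most of the NIL sum came from Gfra1 and Slit3, with NIL means of 12770 and 8982.

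General neuronal genes moved both ways. Of 35 tested 16 were higher and 8 lower, with a median of 0.64 (18 and 8 without NIL C). Of the 15 cytoskeletal genes 8 were higher and 3 lower, and of the 12 genes of synapse and secretion 5 were higher and 2 lower. Snap25, a SNARE of synaptic vesicle release, read 11.4, 11.2 and 0 in NIL A, B and C and 394, 409.6 and 459 in RISDD A, B and C. It had no reads in NIL C, was low in NIL A and B, and was 79.2-fold higher in RISDD (log2 change 6.31 ± 0.829 SE, adjusted p = 0.000161). The difference was 121-fold without NIL A, 120-fold without NIL B and 34.3-fold without NIL C. Scg2, a granin of secretory granules, read 47.2, 20.1 and 18.4 in NIL and 445, 345 and 479 in RISDD, 15.5-fold higher (log2 change 3.96 ± 0.334 SE, adjusted p = 8.64e-06). Cntn2, an axonal adhesion protein, moved the other way, from 13910, 9261 and 15820 in NIL to 348, 164 and 111 in RISDD. It was 68.1-fold lower (log2 change -6.09 ± 0.394 SE, adjusted p = 1.54e-06), and Dcx, a microtubule protein of migrating neurons, was 21.1-fold lower, from 314, 347 and 78.6 to 19.8, 16.2 and 1.58 (adjusted p = 0.00151), and 34-fold without NIL C and 10.9-fold without RISDD C. Among the neurofilaments, named after their values were seen, Nefl read 900.1, 387 and 1172 in NIL and 9411, 8284 and 9173 in RISDD and Nefm 462, 248 and 463 in NIL and 3980, 3606 and 4066 in RISDD. Both were higher in every RISDD library (12-fold and 10.3-fold, adjusted p = 8.09e-05 and 2.30e-05), while Tubb3, a neuronal tubulin, was 3.16-fold lower (adjusted p = 0.00154).

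**Figure D5:**
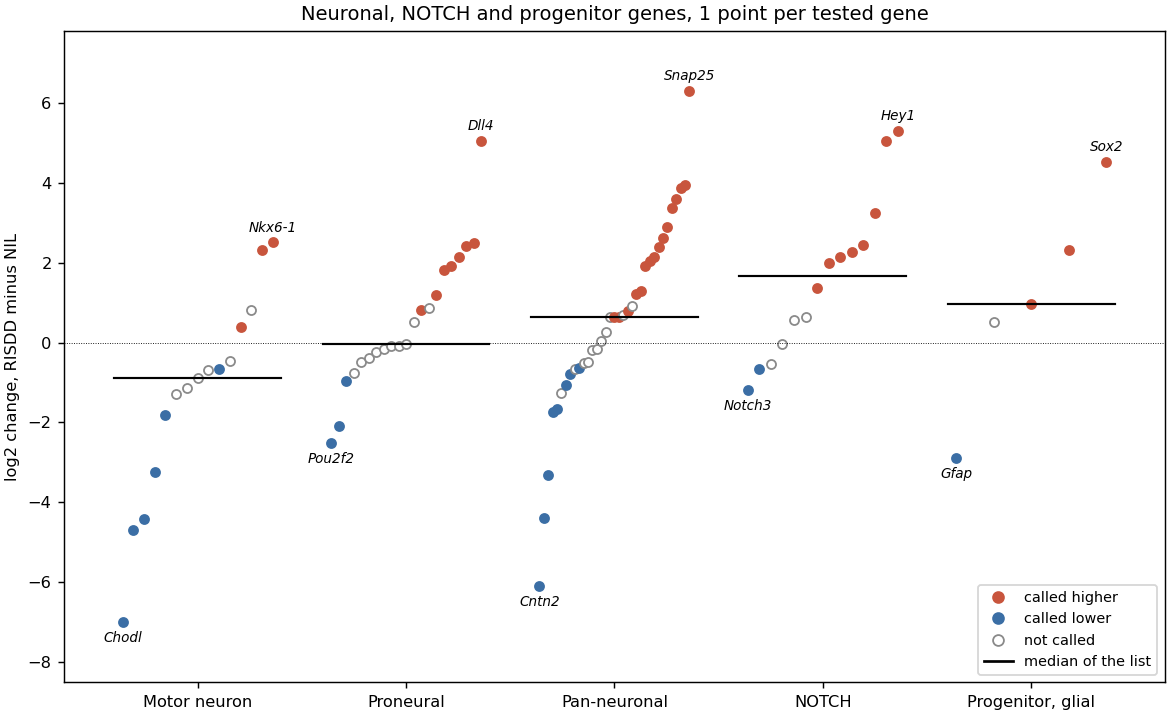
Log2 change of RISDD against NIL for each tested member of 5 gene lists, with a bar at each list's median. The medians are -0.89 for motor neuron genes and 0.64 for general neuronal genes, and members of both lists lie on either side of 0.

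Proneural factors and targets were higher in 8 of 21 cases and lower in 3, with a median of -0.03 (7 and 2 without NIL C). Insm1, a zinc finger factor of newborn neurons, read 269, 225 and 314 in NIL and 926, 937 and 1186 in RISDD, 3.77-fold higher (log2 change 1.92 ± 0.312 SE, adjusted p = 0.000654). Nhlh2, a neuronal helix-loop-helix factor, rose 3.52-fold and St18 fell 4.26-fold (adjusted p = 0.000463 and 0.000911). NOTCH pathway genes, through which neighbouring cells hold back neuronal fate, were higher in 8 of 14 cases and lower in 2, with a median of 1.68 (9 and 2 without NIL C, and 5 higher without RISDD B or without RISDD C). Of 5 ligands 3 were higher, and of 5 targets 4. Hey1, a repressor induced by NOTCH, read 13, 30.1 and 1.94 in NIL A, B and C and 334, 421 and 560.4 in RISDD A, B and C. The RISDD libraries were all above NIL, 39.5-fold (log2 change 5.30 ± 0.698 SE, adjusted p = 0.000162), and 66.9-fold without NIL B and 20.6-fold without NIL C. The ligands Jag2 and Dll1 were 5.43-fold and 4.4-fold higher and the target Hes1 2.6-fold (adjusted p = 0.000217, 0.00202 and 0.0245). Hes1 was not called when NIL A, NIL B or any RISDD library was left out (adjusted p = 0.0733, 0.0684, 0.0573, 0.0528 and 0.0828). Dll4, a further ligand, had 3 reads in NIL and 182 in RISDD, a ratio of 62.5 (95% interval 21.1 to 306).

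WNT pathway genes were lower in 11 of 19 cases and higher in 2 (11 and 4 without NIL C, and 7 lower without RISDD C). The ligand Wnt5a read 4857, 4871 and 4017 in NIL and 876, 1029 and 798 in RISDD, 5.09-fold lower (log2 change -2.35 ± 0.148 SE, adjusted p = 1.36e-06). Wnt5b and the Dickkopf family member Dkk3 were 12.1-fold and 5.3-fold lower (adjusted p = 1.12e-05 and 2.15e-06). Lef1, a transcription factor of the pathway, was 6.96-fold higher, from 14.7, 23.4 and 30.1 to 137, 159.8 and 179 (adjusted p = 0.000173). Imprinted genes were lower in 8 of 14 cases and higher in 4, with a median of -1.19 and the same counts without NIL C. Mest read 13720, 7390 and 7126 in NIL and 824, 632 and 796 in RISDD and Peg10 3986, 5526 and 4007 in NIL and 37470, 44590 and 33630 in RISDD, and both are expressed from the paternal copy. Mest was 12-fold lower and Peg10 8.6-fold higher (log2 change -3.59 ± 0.343 SE, adjusted p = 1.98e-05 for Mest, and log2 change 3.10 ± 0.203 SE, adjusted p = 1.61e-06 for Peg10). The growth factor Igf2 and the transcription factor Plagl1 were 6.61-fold and 5.1-fold lower (adjusted p = 2.82e-05 and 4.77e-05). Phlda2, which restrains placental growth, had no reads in NIL and was at least 48.4-fold higher in RISDD.

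Cholesterol synthesis genes rose together. Of 24 tested 21 were higher and 1 lower, with a median log2 change of 2.12 (23 and 1 without NIL C), and 17 of the 19 enzymes were among the higher genes. Msmo1, a sterol oxidase, read 312, 385 and 135 in NIL A, B and C and 3146, 4050 and 3977 in RISDD A, B and C. The groups did not overlap, and RISDD was 14.6-fold higher (log2 change 3.87 ± 0.316 SE, adjusted p = 7.00e-06). Idi1, an isomerase of isoprenoids, and Cyp51, the sterol demethylase, were 9.29-fold and 5.98-fold higher (adjusted p = 4.28e-05 and 2.55e-06). The summed level was 12540 to 15500 in NIL and 54640 to 56600 in RISDD. The 1 lower gene was the isomerase Ebp, at 429, 341 and 429 in NIL and 263, 209 and 213 in RISDD (named after its values were seen).

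Other metabolic groups changed less uniformly, and their counts stand beside 23.2% higher and 23.5% lower of all tested genes. Glycolysis and hypoxia genes were higher in 5 of 24 cases and lower in 6 (9 and 7 without NIL C). Adm, the hypoxia-induced peptide adrenomedullin, fell 5.9-fold and Ddit4, an mTOR inhibitor, 2.89-fold, while Ndrg1 and Egln3, both induced by hypoxia, rose 3.29-fold and 3.02-fold (adjusted p = 0.000197, 0.000249, 4.71e-05 and 0.000206). Antioxidant targets of NRF2 were higher in 7 of 17 cases and lower in 3 (7 and 4 without NIL C, and 1 lower without RISDD A, RISDD C, SDD B or either SDDIR library). Slc7a11, the cystine transporter, read 195, 400.2 and 117 in NIL and 859.6, 1352 and 967 in RISDD, 4.94-fold higher (log2 change 2.31 ± 0.44 SE, adjusted p = 0.00175), and Srxn1, Nqo1 and Tkt, antioxidant or pentose phosphate enzymes, rose 3.34-, 2.62- and 2.46-fold (adjusted p = 0.000166, 0.00383 and 0.00279). Genes of the integrated stress response were higher in 4 of 18 cases and lower in 4. Without NIL C 9 were higher and 5 lower, and the higher count was 2 without NIL A or RISDD C and 1 without RISDD B. Atf4, its main transcription factor, rose 1.94-fold, whereas Atf5, Sesn2 and Aldh1l2 fell 3.09-, 1.89- and 1.73-fold (adjusted p = 4.11e-05, 0.000254, 0.00246 and 0.000592). Ribosome biogenesis genes were higher in 9 of 20 cases and lower in none (11 and 0 without NIL C, and 5 higher without RISDD B or without RISDD C). Nop56 and Nop14, nucleolar proteins, rose 2.19-fold and 2.05-fold and Dkc1 1.9-fold (adjusted p = 0.000504, 0.000331 and 0.0113). Nop58 was near the threshold (1.88-fold, adjusted p = 0.048). It lost its call in 15 of 25 alternatives, among them edgeR (adjusted p = 0.0797), the replicate letter as a block (adjusted p = 0.0526) and leaving out any RISDD, SDD or SDDIR library.

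Markers of other cell types were also measured. Of 5 tested neural progenitor and glial markers 3 were higher and 1 lower (3 and 0 without NIL C). Sox2, a factor of neural progenitors, read 26.9, 164 and 29.1 in NIL A, B and C and 1113, 1202 and 1275 in RISDD A, B and C. NIL B was the highest NIL library, and RISDD was 23.1-fold higher without overlap (log2 change 4.53 ± 0.805 SE, adjusted p = 0.00115) and 41.3-fold without NIL B. Nes, a progenitor filament, rose 5.01-fold and Sox9 1.94-fold (adjusted p = 4.70e-06 and 0.00403), while the progenitor and glial markers Pax6, Fabp7, Sox1, Olig1 and Olig2 did not reach the minimum level. Schwann and neural crest markers were lower in 5 of 8 cases and higher in 1, with or without NIL C. Gfra3 and Ngfr, receptors of neural crest derivatives, were 73.5-fold and 14.1-fold lower and Mbp, a myelin protein, 3.9-fold higher (adjusted p = 5.02e-06, 2.97e-05 and 0.00039), and Gfra3 was 111-fold without RISDD A. Of 4 tested endothelial markers 3 were higher, as without NIL C (1 without RISDD B or without RISDD C), led by the cadherin Cdh5 at 18.7, 33.4 and 52.4 in NIL and 539, 419 and 419 in RISDD (13.8-fold, adjusted p = 2.09e-05), whereas Tek, Tie1, Emcn, Cldn5 and Erg did not reach the minimum. Of 10 muscle markers Des alone was tested and was not called (adjusted p = 0.151), but was lower without NIL C (log2 -1.45, adjusted p = 0.0298). The 13 mitochondrially encoded genes were not called (limma, median 0.83), but 4 were higher without NIL B, and without NIL C 4 were lower with a median of -0.11.

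The series also holds SDD, cells with NIL, RepSox, SNAP-p53DD and the SNAP sort but no delivered HRAS, and its values are given for some of these genes. The contrasts of SDD with NIL and of RISDD with SDD share libraries with the comparison above, so they are given side by side only. Trp53 read 32350, 40360 and 40130 in SDD, and its log2 change was 3.56 from NIL to SDD and 0.25 from SDD to RISDD (adjusted p = 9.66e-07 and 0.178). Dusp5 read 519.8, 633 and 516 in SDD, with log2 changes of -0.23 and 4.25 in the same order (adjusted p = 0.368 and 9.18e-08). SDD was thus near NIL for Dusp5 and near RISDD for Trp53. Areg read 231, 377 and 402, with 0.21 and 5.70 (adjusted p = 0.542 and 9.18e-08). Nr4a1 read 16000, 10850 and 10510, above RISDD, with 5.56 and -0.95 (adjusted p = 6.00e-06 and 0.0219). Cdkn1a read 2346, 4120 and 3201, below both other groups, with -2.55 and 1.07 (adjusted p = 3.72e-05 and 0.00066). The last 2 genes did not run in 1 direction from NIL through SDD to RISDD. Ifit1 read 7190, 12620 and 11650, above NIL, with 2.55 and -7.30 (adjusted p = 0.0049 and 9.53e-07). Lox read 9131, 7263 and 7021, with -1.49 and -5.36 (adjusted p = 0.000273 and 1.79e-08). Krt8 read 0, 2.9 and 3.07, with -2.28 and 10.34 (adjusted p = 0.0201 and 4.03e-07). Ifit1 was highest in SDD and lowest in RISDD. Msmo1 read 407, 508 and 485, with 0.87 and 2.99 (adjusted p = 0.0815 and 3.30e-05), and Gfra1 34210, 25540 and 22370, with 1.09 and -4.33 (adjusted p = 0.003 and 9.18e-08). In the summed levels, SDD held 41270 to 65340 for motor neuron genes, above NIL, and 988000 to 1173000 for the fibroblast matrix, between NIL and RISDD. Most of the motor neuron sum came from Gfra1, Chodl and Slit3. Their means were 27370, 7671 and 7180 in SDD and 12770, 2285 and 8982 in NIL, so the sum does not describe the list evenly.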

How the data were processed

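RNA-seq libraries were made with a strand-specific kit from RNA of sorted cells, per the labels' protocols. Per the submitters' processing notes, the authors used Trim Galore 0.6.10, Salmon 1.10.3 and GRCm39; which tool scaled the counts is not stated there. The deposited signal is a table of 23077 genes, in which all values of a library are whole multiples of 1 constant (tolerance 0.001). Whole counts, called reads here, were thus recovered: 14872639 to 29815073 per library over the series. They may be rounded Salmon estimates, which matters most for the ratios and intervals of genes with few reads. One column heading of SDDIR appears more than once with identical values and was used once, which left 11 libraries.

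A gene was tested when 3 or more libraries held 10 or more scaled counts, which 14207 genes did. The test was limma (version 3.58.1, R 4.3.3) with a pseudocount of 1 before the log2, trend and robust moderation, all 4 groups and no other covariate, and p-values were adjusted by Benjamini-Hochberg over all of them. The script was tested on simulated data. edgeR 4.0.16 and DESeq2 1.42.0 were run on the recovered reads, beside other scalings, pseudocounts, filters, moderation, sample sets and each library left out; a correction for GC content was added after seeing the data. Fold changes against a group with no reads use a floor of 3 reads over that group, and ratios with 1 to 3 reads carry exact 95% binomial (Clopper-Pearson) intervals, both for counting error only. Figures were drawn with matplotlib 3.10.9.

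Genes were named by a rule: the delivered genes; the 15 largest rises and 15 largest falls with a mean of at least 100 in RISDD or NIL, an adjusted p under 0.05 and no overlap, leaving out predicted genes; up to 4 called genes of each of 38 lists by size of change with the same mean; and, for 5 lists, up to 4 abundant genes that were not called. Some genes that the rule or the lists hold are not reported here by name. Most genes outside it are marked as chosen after their values were seen. Not marked so are Thy1, Pdgfra, Des, Isg15, Gbp2 and list members that were not tested, such as Cd3e. Cldn4, Cldn6, Dll4 and Phlda2, also unmarked, were named because they had 3 reads or fewer in NIL. The comparison, its gene lists and the groups were chosen with earlier results of these data known. ERCC spike-ins were added to the lysis buffer per the labels' protocols and were not used here. Same-letter NIL and RISDD libraries are not stated to be pairs, and the letters were treated as names only.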

Additional observations from a re-analysis of the deposited data

How the results depend on the processing

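Of 25 alternatives, the fit on NIL and RISDD libraries alone moved 1 overall count by more than 1.5 times: 2176 genes were higher in RISDD, against 3294. Changed genes numbered 6480 in edgeR, 7212 in DESeq2, 6579 after quantile normalization, 6503 after upper-quartile scaling, 6680 without a filter on low values and 8127 with the GC correction, which was chosen after seeing the data. Leaving out 1 library at a time gave 4967 (without RISDD C) to 8416 (without NIL C). With the replicate letter as a block 6882 genes were called. The labels do not say whether the letters pair the libraries. Same-letter deviations correlated at 0.159, 0.271 and 0.079 for A, B and C, and different-letter ones at -0.198 to 0.0381. Every library correlated best with its own letter, a hint of pairing from the data and not from the design. Of 161 called named genes 153 kept their call and direction under every alternative that gave them an adjusted p. The other 8 were Bad, Bub1, Cdkn2d, E2f2, Ect2, Hes1, Mmp12 and Nop58, which kept their direction and lost their call in 1 to 15 alternatives. Some of the 153 had an adjusted p in fewer than 25 alternatives, such as Cdh1 in 22 and Cx3cr1 in 23. Ier2, not called at -0.06, reversed under the GC correction to 0.35 (adjusted p = 0.0257), and the cause was not tested. Of 52 group counts of 3 or more, 18 moved by more than 1.5 times under some alternative and 16 when 1 library was left out. With 3 libraries a group, an exact permutation test of a single gene cannot go below 0.10, so calls rest on the spread shared over genes and groups. A single read equals 0.790 to 1.24 scaled counts in the NIL and RISDD libraries, so genes near 0 in a group carry bounds or wide ratios.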
